A study of Mus musculus with 15 samples.

Results

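The genes described here are the interleukin-36 (IL-36) and interleukin-20 (IL-20) family cytokines and their receptors, 10 of the 48795 genes in the count tables. They were listed by name, with earlier results of these data known. The list holds the IL-36 ligands Il1f6, Il1f8 and Il1f9, the IL-36 receptor antagonist Il1f5 and the IL-36 receptor chain Il1rl2. It also holds the IL-20 family ligands Il19 and Il24 and the receptor chains Il20ra, Il20rb and Il22ra1. Il1f6, Il1f8, Il1f9 and Il1f5 are the genes for IL-36 alpha, beta, gamma and the IL-36 receptor antagonist, also written Il36a, Il36b, Il36g and Il36rn. Messenger RNA was sequenced from the ear of female mice aged 5 weeks, in 15 libraries. The 5 Control libraries carry the treatment label Control, the 4 PMA_ethanol libraries the label PMA_ethanol, and the 6 PMA_1002 libraries the label PMA_1002. PMA stands for phorbol 12-myristate 13-acetate, a skin irritant and activator of protein kinase C, and 1002 for an innate defense regulator (IDR) peptide, a synthetic relative of host defense peptides. All 3 groups, Control included, carry the same label for the PMA ear model. The labels give no strain, dose, time or treatment of the Control ears, do not name ethanol for the PMA_1002 group, and do not say whether each library came from its own animal, so the p-values below rest on the variation among libraries, which may be technical.

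IL-36 ligands are made mainly by epithelial cells, bind a receptor of Il1rl2 and its accessory chain Il1rap, and signal through MyD88 to NF-kB. Il1f5 binds the same receptor chain without starting a signal, and its loss in people causes pustular skin inflammation. IL-19, IL-20 and IL-24 bind a receptor of Il20ra and Il20rb, IL-20 and IL-24 also bind Il22ra1 paired with Il20rb, and IL-22 binds Il22ra1 paired with Il10rb. These receptors sit on keratinocytes and other epithelial cells, signal through JAK kinases and STAT3, and are known for driving epidermal thickening and antimicrobial genes.

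PMA_ethanol ears held more messenger RNA of Il1f6, Il1f9, Il19 and Il24 and less of the receptor chains Il20ra, Il20rb and Il22ra1 than Control ears, while the difference of Il1f8 was small and depended on the settings. Il1f9 was 7.76-fold and Il1f6 9.05-fold higher, and Il20rb was 7.11-fold lower. The mean of Il24 was at least 635-fold higher, and its lowest PMA_ethanol library at least 203-fold. In PMA_1002 ears Il1f9, Il19 and Il24 were lower than in PMA_ethanol ears, and Il20ra, Il20rb and Il22ra1 were higher. Il1f8, Il1f5 and Il1rl2 differed little between the PMA_1002 and PMA_ethanol groups.

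Of the 10 genes, 9 passed the test between PMA_ethanol and Control (edgeR's quasi-likelihood test, two-sided, Benjamini-Hochberg adjusted p under 0.05 over the 14991 genes tested), 6 of them higher and 3 lower in PMA_ethanol. The background is high, since 68.4% of all tested genes passed there, 32.5% higher and 35.9% lower. Between PMA_1002 and PMA_ethanol, 6 of the 10 passed, 3 higher and 3 lower in PMA_1002, against 35.0% of all tested genes, 17.0% higher and 18.0% lower. Between PMA_1002 and Control, 8 of the 10 passed, 6 higher and 2 lower in PMA_1002, against 55.0% of all tested genes, 28.4% higher and 26.7% lower. Groups did not overlap in level for 8, 6 and 6 of the 10 genes in these 3 comparisons, beside 57.8%, 24.1% and 36.7% of all tested genes. The share of genes that both passed and differed at least 2-fold was 7, 6 and 5 of the 10, beside 27.6%, 7.52% and 12.4% of all tested genes. The median log2 fold change over the 10 was 0.60, -0.02 and 0.59, beside -0.067, 0.032 and -0.029 over all tested genes. Il24 lies above the medians against Control both at its fitted value and at its lower bound. All 10 genes passed the filter on low counts, Il19 and Il24 through the PMA libraries alone. The tests of Il19 and Il24 against Control therefore carry little weight of their own, and both genes are part of the counts against Control given above. With upper-quartile scaling the median over all tested genes shifted by -0.235, 0.078 and -0.158, and 33.6%, 61.8% and 34.6% of the genes that passed were higher, in place of 47.5%, 48.7% and 51.5%. No gene of the 10 that passed changed direction under it. The comparisons share libraries, so they are not independent of each other.

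**Figure D1:**
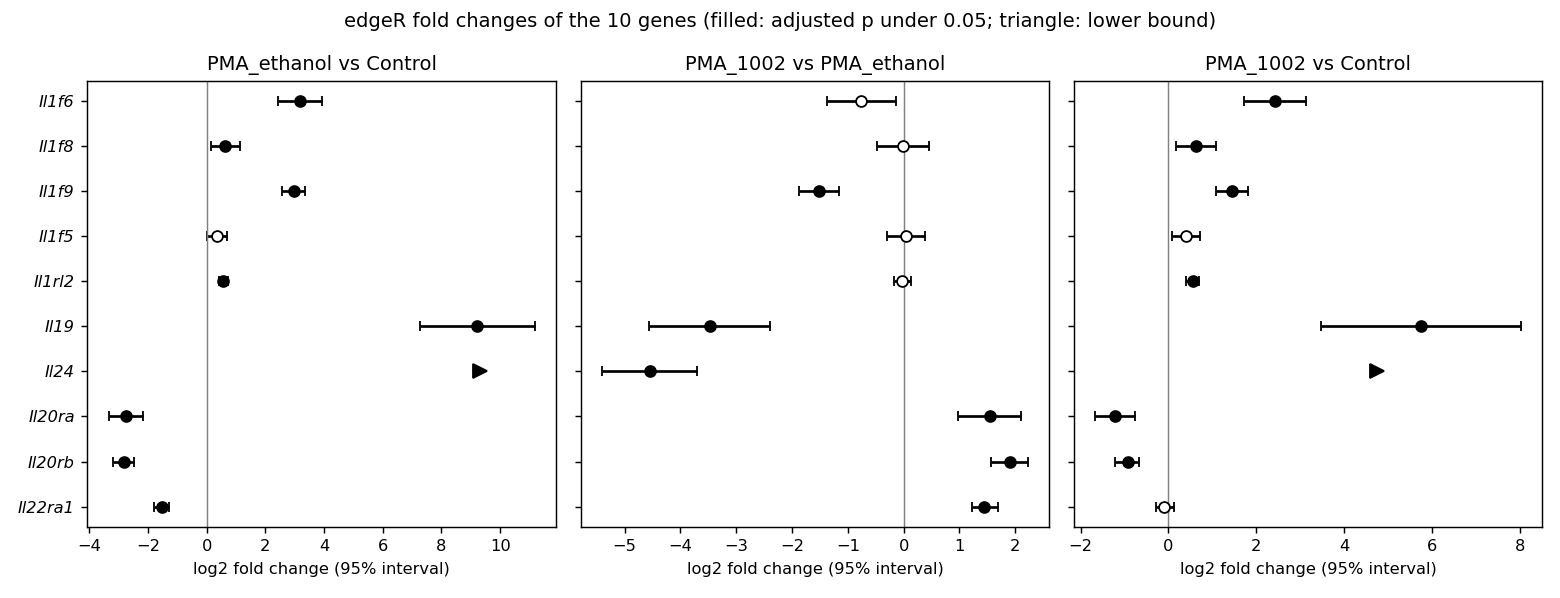
Log2 fold change of each of the 10 genes from edgeR (x axis) with its 95% interval, in PMA_ethanol against Control, PMA_1002 against PMA_ethanol and PMA_1002 against Control. Filled points passed at an adjusted p under 0.05, open points did not, and triangles mark the lower bounds of Il24, whose Control libraries held 0 reads; Il20ra, Il20rb and Il22ra1 lie left of 0 in the first panel and right of 0 in the second.

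Reads in genes ran from 2656680 to 28585995 per library, so low levels are least precise in the shallowest libraries. Hair follicle marker genes varied widely and without a clear gap, with summed levels over all libraries from 15.9 to 4077 CPM. CPM are counts per 1000000 reads in genes, scaled by TMM, the trimmed mean of M values. The mean level of these markers was over 4 log2 CPM, a cut set after seeing the data, in 6 libraries. These were Control 3 and 5, PMA_ethanol 1 and 2, and PMA_1002 1 and 4. Without these 6 libraries 8, 6 and 7 of the 10 genes passed in the 3 comparisons. With all libraries it was 9, 6 and 8, where 68.4%, 35.0% and 55.0% of all tested genes passed. The counts without the 6 libraries come from smaller groups and are a description only. The keratinocyte markers that define the epidermis were abundant, at a summed 25364 to 33079 CPM in Control, 15396 to 20141 in PMA_ethanol and 28476 to 32039 in PMA_1002. In whole ear tissue, fewer cells of a type and less RNA per cell cannot be told apart.

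Promoter sequences of 8 of the 10 genes were found in RefSeq (build GRCm38.p6), and 3 are shown, each from 250 bases before to 50 bases after the start site, 5′ to 3′ on the gene's strand. Il19 and Il1f9 are shown as the ligands of each family with the highest level in PMA_ethanol ears, and Il20rb as the receptor chain with the highest level in Control. Capitals mark matches to the STAT motif TTCNNNGAA or the NF-kB consensus. The Il19 promoter lies on the minus strand at chr1:130940066-130940365, the Il1f9 promoter on the plus strand at chr2:24186226-24186525 and the Il20rb promoter on the minus strand at chr9:100486424-100486723.
Il19: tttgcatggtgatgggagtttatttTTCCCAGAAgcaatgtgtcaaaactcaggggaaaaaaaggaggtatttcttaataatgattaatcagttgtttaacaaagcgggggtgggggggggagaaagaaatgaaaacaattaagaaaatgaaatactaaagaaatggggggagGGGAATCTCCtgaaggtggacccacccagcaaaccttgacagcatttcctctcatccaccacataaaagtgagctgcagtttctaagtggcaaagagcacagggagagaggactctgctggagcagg
Il1f9: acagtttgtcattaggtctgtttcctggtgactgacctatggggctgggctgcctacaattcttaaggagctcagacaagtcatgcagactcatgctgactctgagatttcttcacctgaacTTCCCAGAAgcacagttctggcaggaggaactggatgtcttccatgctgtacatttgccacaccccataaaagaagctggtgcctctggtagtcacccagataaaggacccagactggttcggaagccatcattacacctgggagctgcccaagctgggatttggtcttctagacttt
Il20rb: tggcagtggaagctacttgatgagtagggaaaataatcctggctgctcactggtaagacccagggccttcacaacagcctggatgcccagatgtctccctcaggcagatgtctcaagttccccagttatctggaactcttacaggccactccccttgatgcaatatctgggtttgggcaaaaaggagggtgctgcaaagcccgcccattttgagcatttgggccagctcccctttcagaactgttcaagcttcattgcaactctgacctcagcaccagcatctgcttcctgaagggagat
The same 9 bases, TTCCCAGAA, begin at position -225 of Il19 and at position -128 of Il1f9, counted from the start site, and Il19 also holds an NF-kB match at position -77. Il20rb and Il1rl2 held no match to the STAT motif, the NF-kB consensus or the AP-1 motif TGANTCA in this window. Il1f8 held an AP-1 match at position -236, Il20ra 1 at position -164, and Il22ra1 an AP-1 match at position -222 and an NF-kB match at position -156. Il1f5 has a pair of listed start sites, and the downstream one held a STAT match at position -98. Its letters, TTCTGGGAA, are TTCCCAGAA read on the other strand, so Il1f5 shares the site of Il19 and Il1f9. Of 32817 promoters of the same length, 8.29% held the STAT motif, 8.46% the NF-kB consensus and 7.81% the AP-1 motif on either strand. No match overlapped another, and a match describes letters only.

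The IL-36 ligand genes and their antagonist lie side by side on chromosome 2 on the plus strand (GRCm38, GENCODE M21). Il1f8 (ENSMUSG00000026985) spans 24153161 to 24160519, Il1f9 (ENSMUSG00000044103) 24186476 to 24193568, Il1f6 (ENSMUSG00000026984) 24215418 to 24225702 and Il1f5 (ENSMUSG00000026983) 24276954 to 24283426. The 4 genes together span 130.3 kb.

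Il1f9, which makes IL-36 gamma, was the most abundant of the 10 genes per length of exon in both PMA groups. Its level was 36.8, 35.8, 40.1, 40.2 and 43.8 CPM in Control libraries 1 to 5, and 320, 253, 439 and 216 CPM in PMA_ethanol libraries 1 to 4. In the PMA_1002 libraries it ran from 77.6 to 150 CPM with a median of 103. The 3 groups did not overlap, with PMA_1002 between the other two. Il1f9 rose by 2.96 on the log2 scale (SE 0.202, edgeR adjusted p 4.22e-09) in PMA_ethanol against Control. In PMA_1002 it was 2.85-fold lower than in PMA_ethanol (log2 fold change -1.51, SE 0.182, edgeR adjusted p 1.37e-05). It was still 2.72-fold above Control there (log2 fold change 1.45, SE 0.184, edgeR adjusted p 9.92e-06).

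Il1f6, which makes IL-36 alpha, was the scarcest ligand of the 3 in Control. It measured 1.91, 3.10, 4.73, 4.16 and 3.77 CPM in Control libraries 1 to 5 and 47.7, 29.2, 41.5 and 14.9 CPM in PMA_ethanol libraries 1 to 4. PMA_1002 libraries ran from 10.6 to 26.7 CPM with a median of 20.6. Every PMA_ethanol and PMA_1002 library lay above every Control library, while the PMA groups overlapped because PMA_ethanol library 4 fell inside the PMA_1002 range. Il1f6 rose by 3.18 (log2, SE 0.378, edgeR adjusted p 2.86e-06) in PMA_ethanol and by 2.42 (SE 0.356, edgeR adjusted p 5.02e-05), or 5.35-fold, in PMA_1002 against Control. The difference between PMA_1002 and PMA_ethanol was -0.76 (log2, 95% interval -1.38 to -0.14) and did not pass (edgeR adjusted p 0.077). It passed with DESeq2 (adjusted p 0.0349), and without PMA_ethanol library 4 it was -1.01 (edgeR adjusted p 0.0121).

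Il1f8, which makes IL-36 beta, differed least of the ligands. Its level was 21.9, 13.1, 20.9, 22.5 and 26.9 CPM in Control libraries 1 to 5, 45.8, 25.5, 41.5 and 20.2 CPM in PMA_ethanol libraries 1 to 4, and from 24.7 to 46.7 CPM with a median of 30.5 in PMA_1002. All 3 groups overlapped. The log2 fold change was 0.64 (SE 0.253, edgeR adjusted p 0.0354) in PMA_ethanol and 0.63 (SE 0.23, edgeR adjusted p 0.0305) in PMA_1002 against Control, and -0.01 between the PMA groups (95% interval -0.48 to 0.46, edgeR adjusted p 0.977). The first of these passed under 14 of 25 alternative settings, with adjusted p from 0.00768 to 0.167, and the second under 16 of 25, with adjusted p from 0.00877 to 0.493. Leaving out Control library 1, 2 or 3 or PMA_ethanol library 1 or 3 ended the first call, with log2 fold changes of 0.65, 0.51, 0.63, 0.42 and 0.54. Leaving out Control library 2 or 3 or PMA_1002 library 1, 4 or 5 ended the second, with log2 fold changes of 0.50, 0.62, 0.51, 0.61 and 0.61.

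Il1f5, the receptor antagonist, did not pass in any of the 3 comparisons. It measured 116, 90.6, 123, 111 and 129 CPM in Control libraries 1 to 5, 192, 126, 165 and 99.4 CPM in PMA_ethanol libraries 1 to 4, and from 119 to 195 CPM with a median of 139 in PMA_1002. All groups overlapped, and PMA_ethanol libraries 1 and 3 and most PMA_1002 libraries lay above the highest Control library. The log2 fold change was 0.35 (SE 0.179, edgeR adjusted p 0.0962) in PMA_ethanol against Control, 0.39 (95% interval 0.07 to 0.71, edgeR adjusted p 0.0527) in PMA_1002 against Control, and 0.04 (95% interval -0.30 to 0.38, edgeR adjusted p 0.884) between the PMA groups. The first passed in 2 of 25 alternatives, among them leaving out PMA_ethanol library 4 (0.50, edgeR adjusted p 0.0148). The second passed in 8 of 25, among them leaving out PMA_ethanol library 1 or 4 (log2 fold change 0.39 each, edgeR adjusted p 0.032 and 0.0253) or PMA_1002 library 3 or 6 (0.43 and 0.47, edgeR adjusted p 0.0474 and 0.0269).

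**Figure D2:**
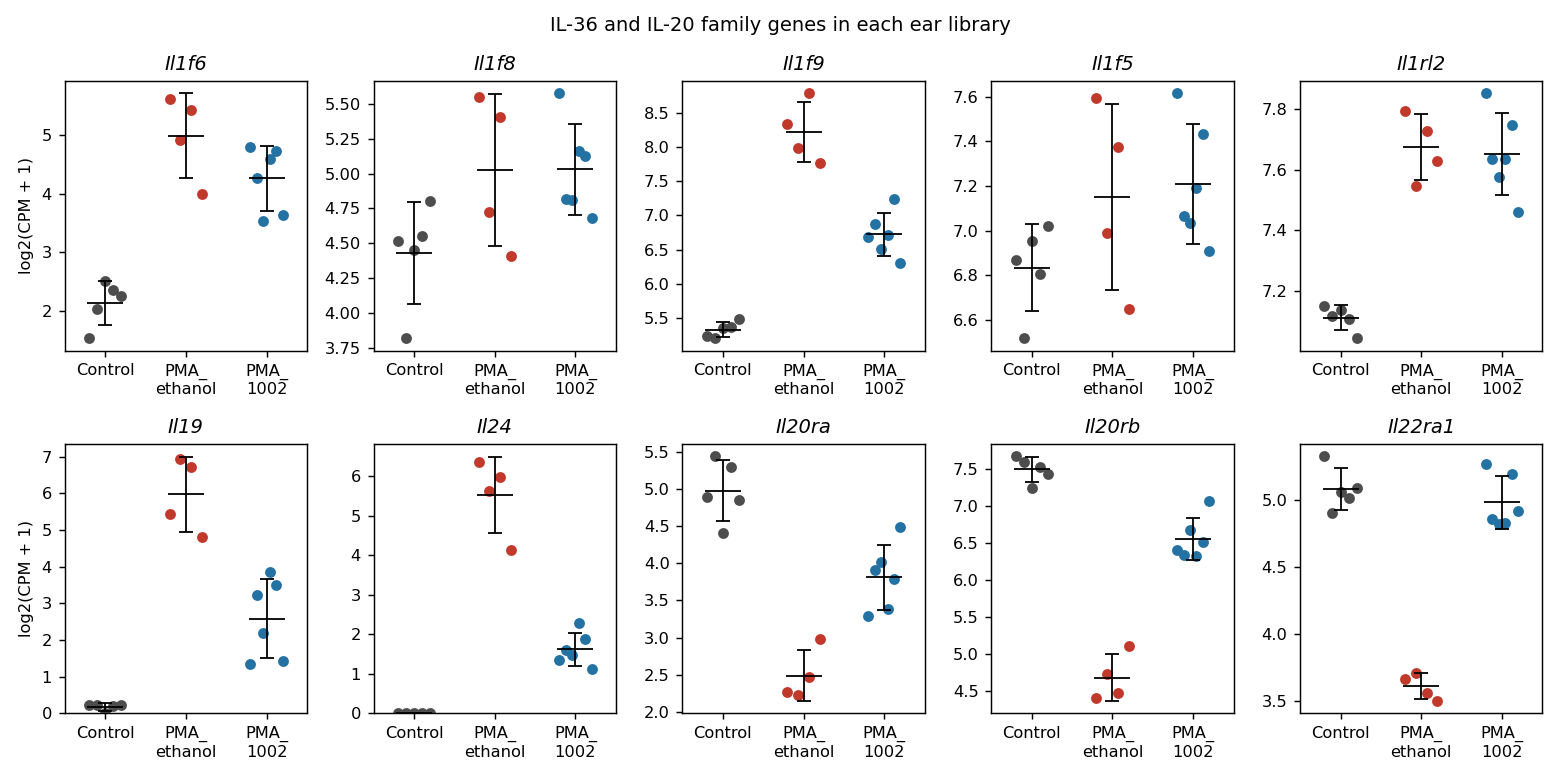
Level of each of the 10 genes in every library as log2(CPM + 1) (y axis), with the mean and SD of the 5 Control, 4 PMA_ethanol and 6 PMA_1002 libraries as bars. Il1f9, Il19 and Il24 peak in PMA_ethanol with no overlap between groups, Il20ra, Il20rb and Il22ra1 are lowest there, and Il1f8 and Il1f5 overlap across all 3 groups; the y axes differ between panels and do not start at 0 in all of them.

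Ligand and antagonist levels were set against each other per length, in RPKM (CPM per kb of exon). The ligand sum (Il1f6, Il1f8 and Il1f9) ran from 36.0 to 52.9 RPKM in the Control group, 165 to 348 RPKM in PMA_ethanol and 80.5 to 147 RPKM in PMA_1002. Relative to Il1f5 this sum was 1.64 to 1.93 in Control, 6.69 to 9.48 in PMA_ethanol and 3.0 to 3.85 in PMA_1002. The groups did not overlap in this ratio, and every PMA library lay above every Control library. Il1f9 made up a median of 51.9% of the ligand sum in Control, 75.3% in PMA_ethanol and 60.0% in PMA_1002. Il1f8 made up 38.8%, 10.1% and 24.6%, and Il1f6 9.75%, 14.7% and 18.8%. The Il1f8 share did not overlap between any pair of groups, whereas the Il1f6 share of PMA_1002 libraries, 13.4% to 23.2%, overlapped that of PMA_ethanol, 10.2% to 18.9%. The Il1f9 share of PMA_1002 libraries, 47.4% to 62.2%, overlapped that of Control, 50.2% to 60.4%, and both lay below PMA_ethanol, 67.9% to 79.7%. These are messenger RNA levels, and the ligands need proteolytic processing to become active, which was not measured.

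**Figure D3:**
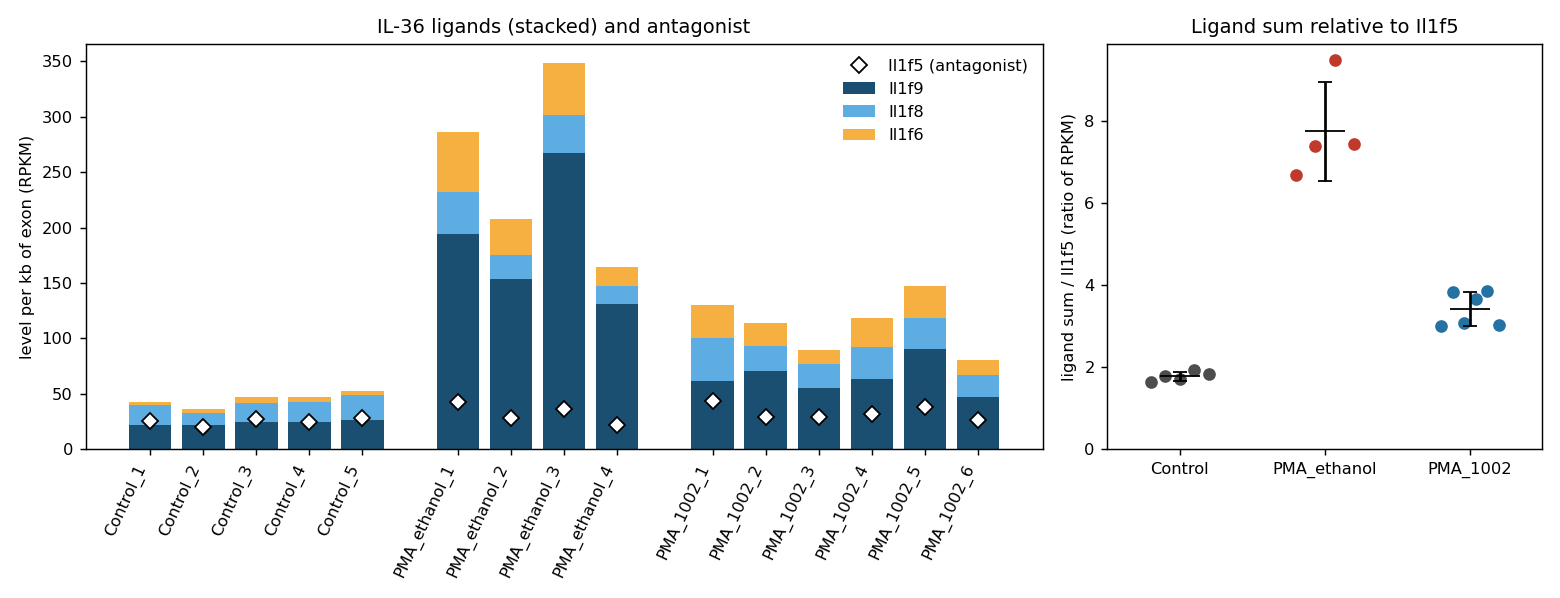
Left, the level of Il1f9, Il1f8 and Il1f6 in every library as stacked bars in RPKM (y axis), with Il1f5 as diamonds; right, the ligand sum divided by Il1f5 in each library, with the mean and SD of each group. The ratio is 1.64 to 1.93 in Control, 6.69 to 9.48 in PMA_ethanol and 3.0 to 3.85 in PMA_1002.

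Il1rl2 (ENSMUSG00000070942, chromosome 1, 40324610 to 40367562, plus strand), the chain that binds all IL-36 ligands and the antagonist, was higher in both PMA groups by a similar amount. It measured 141, 138, 140, 137 and 131 CPM in Control libraries 1 to 5, 221, 186, 211 and 197 CPM in PMA_ethanol libraries 1 to 4, and from 175 to 230 CPM with a median of 198 in PMA_1002. Every PMA library lay above every Control library, and the PMA groups overlapped. Il1rl2 rose 1.48-fold in PMA_ethanol (log2 fold change 0.57, SE 0.0783, edgeR adjusted p 5.76e-06) and 1.46-fold in PMA_1002 (0.55, SE 0.0714, edgeR adjusted p 6.91e-06) against Control. The difference between the PMA groups was -0.02, with a 95% interval of -0.17 to 0.13. With upper-quartile scaling the first value was 0.33. An overlapping pseudogene on the same strand, Gm17970, held 519 reads over all libraries beside 26425 for Il1rl2. The level of Il1f9 relative to Il1rl2, both in RPKM, was 1.07 to 1.38 in Control, 4.54 to 8.62 in PMA_ethanol and 1.83 to 2.89 in PMA_1002, with no overlap.

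The other genes of the IL-36 pathway were read from a list of 15, of which 13 were tested. Between PMA_ethanol and Control 9 were higher, 2 lower and 2 did not pass, with a median log2 fold change of 0.42 beside -0.067 over all tested genes, of which 32.5% were higher and 35.9% lower. Nfkbiz, an NF-kB cofactor that IL-36 signalling induces in keratinocytes, rose by 2.79 (SE 0.15, edgeR adjusted p 9.18e-11), from a mean of 30.8 to 213 CPM. Myd88, the adaptor below the receptor, rose by 2.74 (SE 0.0688, edgeR adjusted p 2.16e-14). Irak3, an inhibitory member of the IRAK family, rose by 2.15 and Irak2, a signalling member, by 0.99. Il1rap, the accessory receptor chain, rose by 0.66 (SE 0.176, edgeR adjusted p 0.00362). Ctsg, a neutrophil and mast cell protease that can process IL-36 ligands, fell by 1.20 (SE 0.32, edgeR adjusted p 0.00307), and Sigirr, an inhibitory receptor of this family, fell by 0.47 (SE 0.167, edgeR adjusted p 0.0187). Elane and Prtn3, the other neutrophil proteases listed, had too few reads to be tested.

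Between PMA_1002 and PMA_ethanol 1 of the 13 IL-36 pathway genes was higher, 7 were lower and 5 did not pass, with a median of -0.24 beside 0.032 over all tested genes, of which 17.0% were higher and 18.0% lower. Myd88 and Irak3 each fell by 0.76 (edgeR adjusted p 1.68e-07 and 0.000127), and Nfkbiz fell by 0.97 (edgeR adjusted p 3.46e-05). Irak2 fell by 0.57 (edgeR adjusted p 0.00293). Il1rap fell by 0.65 (edgeR adjusted p 0.00708) to a mean of 59.7 CPM, beside 59.5 in Control, and Ctss, the protease cathepsin S that can process IL-36 gamma, fell by 0.43 (edgeR adjusted p 0.00732). Sigirr was the gene that rose (0.50, edgeR adjusted p 0.0234). Against Control, 6 genes were higher in PMA_1002, 1 was lower and 6 did not pass, with a median of 0.18 beside -0.029 over all tested genes, of which 28.4% were higher and 26.7% lower. Myd88 (1.98), Nfkbiz (1.81), Irak3 (1.39) and Irak4 (0.57) were among the higher genes.

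Il24 and Il19 lie in one cluster on the minus strand of chromosome 1, with Il20 between them. Il24 (ENSMUSG00000026420) spans 130882074 to 130887454, Il20 130906985 to 130911451 and Il19 (ENSMUSG00000016524) 130932656 to 130940115, over 58.0 kb in all.

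Il24 had 0 reads in all 5 Control libraries. In PMA_ethanol libraries 1 to 4 it had 740, 1096, 150 and 116 reads, or 81.1, 48.0, 62.2 and 16.6 CPM, and in PMA_1002 libraries it ran from 1.19 to 3.91 CPM with a median of 1.91, from 7 to 76 reads. The groups did not overlap. Against a floor of 3 reads over the Control group, 0.0819 CPM, the mean of PMA_ethanol was at least 635-fold higher and that of PMA_1002 at least 26.7-fold higher (edgeR adjusted p 8.22e-07 and 0.000928). These bounds cover counting error only. Il24 passed the filter on low counts only through PMA libraries, so its tests against Control add little to these counts. Il24 was 23.5-fold lower in PMA_1002 than in PMA_ethanol (log2 fold change -4.55, SE 0.436, edgeR adjusted p 2.36e-05), the largest difference between the PMA groups among the 10 genes.

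Il19 was nearly absent from Control, with 1, 1, 0, 1 and 1 reads in Control libraries 1 to 5. PMA_ethanol libraries 1 to 4 held 386, 2784, 252 and 188 reads, or 42.3, 122, 105 and 26.9 CPM, and PMA_1002 libraries ran from 1.53 to 13.4 CPM with a median of 5.95. The groups did not overlap. With 4 Control reads in all, the ratio of levels over the group was 799 (95% counting interval 312 to 2935) for PMA_ethanol and 69.3 (26.9 to 255) for PMA_1002, and edgeR adjusted p was 2.57e-06 and 0.001. Il19 too passed the filter on low counts only through PMA libraries, so these tests against Control add little to the counts. In PMA_1002 Il19 was 11.1-fold lower than in PMA_ethanol (log2 fold change -3.47, SE 0.552, edgeR adjusted p 0.000342). Within PMA_1002 its level varied widely, with libraries 1 and 6 lowest at 1.53 and 1.69 CPM and library 4 highest. Relative to Il24, both in RPKM, Il19 was 0.629 to 3.06 in PMA_ethanol and 1.21 to 4.95 in PMA_1002, and these ranges overlapped.

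Il20, the remaining ligand of these receptors, did not pass in any comparison. It measured 3.47, 0.517, 2.25, 2.16 and 2.46 CPM in Control libraries 1 to 5, 1.64, 2.19, 1.24 and 1.86 CPM in PMA_ethanol libraries 1 to 4, and 1.60 to 3.36 CPM in PMA_1002. The log2 fold change was -0.24 (edgeR adjusted p 0.568), 0.17 (0.739) and -0.07 (0.879) in the 3 comparisons, so the gene between Il24 and Il19 did not move detectably at these low counts. On chromosome 2, Il1f10, the IL-38 gene at 24291196 to 24293820 next to Il1f5, did not pass either, with means of 9.78, 6.97 and 8.14 CPM in Control, PMA_ethanol and PMA_1002.

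Il20rb (ENSMUSG00000044244, chromosome 9, 100457719 to 100486788, minus strand), the chain shared by both receptors for these ligands, was the most abundant of the 10 genes per length in Control. It measured 204, 193, 151, 184 and 172 CPM in Control libraries 1 to 5, 20.2, 25.6, 21.2 and 33.5 CPM in PMA_ethanol libraries 1 to 4, and from 79.3 to 133 CPM with a median of 87.4 in PMA_1002. The groups did not overlap, and PMA_1002 lay between the other two. Il20rb fell by 2.83 (log2, SE 0.177, edgeR adjusted p 7.52e-10) in PMA_ethanol against Control. It was 3.72-fold higher in PMA_1002 than in PMA_ethanol (log2 fold change 1.90, SE 0.169, edgeR adjusted p 5.4e-07) and 1.91-fold lower than in Control (-0.93, SE 0.14, edgeR adjusted p 3.85e-05).

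Il20ra (ENSMUSG00000020007, chromosome 10, 19712570 to 19760053, plus strand), the partner of Il20rb in the receptor for IL-19, IL-20 and IL-24, followed the same order. It measured 28.6, 42.5, 20.2, 38.2 and 27.9 CPM in Control libraries 1 to 5, 3.84, 3.68, 4.56 and 6.87 CPM in PMA_ethanol libraries 1 to 4, and from 8.76 to 21.4 CPM with a median of 13.4 in PMA_1002. PMA_ethanol lay below both other groups without overlap, and the highest PMA_1002 library, number 6, lay above the lowest Control library. Il20ra fell by 2.76 (log2, SE 0.298, edgeR adjusted p 5.84e-07), or 6.77-fold, in PMA_ethanol against Control. It was 2.92-fold higher in PMA_1002 than in PMA_ethanol (log2 fold change 1.55, SE 0.289, edgeR adjusted p 0.000658) and 2.32-fold lower than in Control (-1.21, SE 0.233, edgeR adjusted p 0.000391). With all libraries thinned to 2656680 reads the last value was -1.12 and did not pass (edgeR adjusted p 0.0781). An antisense gene, Gm33332, overlaps Il20ra, and the sources used here do not say whether counting used strand, so its level is uncertain to that extent. With the hair follicle level as a covariate the 3 values were -2.69, 1.16 and -1.54.

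Il22ra1 (ENSMUSG00000037157, chromosome 4, 135728172 to 135752140, plus strand), which pairs with Il20rb for IL-20 and IL-24 and with Il10rb for IL-22, was low in PMA_ethanol and near the Control level in PMA_1002. It measured 39.2, 28.9, 32.4, 31.4 and 33.0 CPM in Control libraries 1 to 5, 11.7, 12.1, 10.8 and 10.3 CPM in PMA_ethanol libraries 1 to 4, and from 27.3 to 37.5 CPM with a median of 28.7 in PMA_1002. The 4 PMA_ethanol libraries lay within a narrow range below all others, and the PMA_1002 and Control groups overlapped. Il22ra1 fell by 1.54 (log2, SE 0.125, edgeR adjusted p 1e-08), or 2.91-fold, in PMA_ethanol against Control and was 2.74-fold higher in PMA_1002 than in PMA_ethanol (1.45, SE 0.121, edgeR adjusted p 1.96e-07). Between PMA_1002 and Control the difference was -0.09 (95% interval -0.29 to 0.12) and did not pass (edgeR adjusted p 0.983). That p-value is higher than the interval implies, so it does not measure how alike the groups are in this difference. With upper-quartile scaling that difference was -0.25 and passed (edgeR adjusted p 0.0489).

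The chains kept unequal proportions per length. Il20rb relative to Il22ra1 was 2.84 to 4.08 in Control, 1.05 to 1.99 in PMA_ethanol and 1.37 to 2.77 in PMA_1002, so both PMA groups lay below Control without overlap. Il20rb relative to Il20ra was 2.62 to 4.30 in Control, 2.68 to 4.02 in PMA_ethanol and 3.30 to 5.53 in PMA_1002, with all groups overlapping. The summed keratinocyte markers were also lower in PMA_ethanol, with medians of 29479, 18351 and 30282 CPM in Control, PMA_ethanol and PMA_1002, and without overlap between PMA_ethanol and either other group. Most of that sum is Krt10, Krt5, Krt14 and Dsp, and the 12 markers did not move alike. Between PMA_ethanol and Control 7 were lower, 3 did not pass, and Epcam (1.87) and Cdh1 (0.95), which make cell adhesion proteins, were higher. Between PMA_1002 and PMA_ethanol 10 were higher and the same 2 lower (-0.56 and -0.67), and between PMA_1002 and Control 4 were higher, 1 lower and 7 did not pass. Over all tested genes the shares higher and lower were 32.5% and 35.9%, 17.0% and 18.0%, and 28.4% and 26.7% in these 3 comparisons. The part of the keratinocyte markers in the receptor results was not tested.

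Levels per length gave a different order in each group. In Control, Il20rb led at 43.0 ± 4.88 RPKM (SD, n = 5), above Il1f5 at 25.4 ± 3.29 and Il1f9 at 23.9 ± 1.92, whose ranges overlapped. Il1rl2 (20.2), Il1f8 (17.3), Il20ra (13.0) and Il22ra1 (12.8) followed with overlapping neighbours, then Il1f6 (4.0) without overlap, then Il19 (0.116) and Il24 (0). In PMA_ethanol Il1f9 led at 186 ± 59.4 RPKM (SD, n = 4) without overlap. Il19 (64.3), Il1f6 (37.7), Il24 (37.5), Il1f5 (32.4), Il1rl2 (29.9) and Il1f8 (27.3) followed, each overlapping its neighbour. The receptor chains Il20rb (5.97), Il22ra1 (4.37) and Il20ra (1.95) came last, each without overlap with the next. In PMA_1002 Il1f9 led again at 64.8 ± 15.1 RPKM (SD, n = 6). Il1f5 (33.2), Il1rl2 (29.5), Il1f8 (26.6), Il20rb (22.5), Il1f6 (21.8), Il22ra1 (12.0), Il19 (5.64) and Il20ra (5.60) each overlapped the next, and Il24 (1.58, from 0.856 to 2.82) lay below Il20ra without overlap but overlapped Il19 (1.33 to 11.7).

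The other genes of IL-20 and IL-22 signalling were read from a list of 12, all tested. Between PMA_ethanol and Control 8 were higher, 2 lower and 2 did not pass, with a median log2 fold change of 0.95 (all tested genes: 32.5% higher, 35.9% lower, median -0.067). Socs3, a feedback inhibitor that STAT3 induces, rose by 5.07 (SE 0.132, edgeR adjusted p 2.64e-14), from a mean of 27.4 to 915 CPM. Stat3 itself rose by 2.03 (SE 0.0735, edgeR adjusted p 6.05e-13), Stat5a by 2.13 and Socs1, another feedback inhibitor, by 3.34. Il10rb, the partner of Il22ra1 for IL-22, rose by 1.01 (SE 0.106, edgeR adjusted p 2.43e-07), against the fall of Il22ra1. Il22ra2, the soluble decoy receptor for IL-22, fell by 1.36 (SE 0.247, edgeR adjusted p 0.000113), and the kinase gene Tyk2 fell by 0.77 (SE 0.118, edgeR adjusted p 1.83e-05).

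Il22 had 0 reads in Control and 47, 84, 21 and 6 reads in PMA_ethanol libraries 1 to 4. Against a floor of 3 reads over the Control group, the PMA_ethanol mean was at least 56.2-fold higher. The lowest PMA_ethanol library was at least 10.5-fold higher. These bounds cover counting error only. Il22 passed the filter on low counts only through PMA libraries, so its test against Control (edgeR adjusted p 0.00327) adds little to these counts. PMA_1002 libraries 1 to 6 held 1, 2, 0, 21, 12 and 1 reads, with most of them in library 4. The difference of PMA_1002 from PMA_ethanol was -2.62 (edgeR adjusted p 0.0588) and did not pass. The difference of PMA_1002 from Control did not pass either (edgeR adjusted p 0.0794).

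Between PMA_1002 and PMA_ethanol 2 of the 12 were higher, 7 lower and 3 did not pass, with a median of -0.47 (all tested genes: 17.0% higher, 18.0% lower, median 0.032). Socs3 fell by 1.31 (edgeR adjusted p 1.74e-07), Socs1 by 1.17 (edgeR adjusted p 2.48e-06), Stat5a by 0.76 and Stat3 by 0.55 (edgeR adjusted p 0.000114 and 1.07e-05). Il10rb fell by 0.51 (edgeR adjusted p 0.000793), and the genes that rose were Il22ra2 (0.72, edgeR adjusted p 0.0266) and Tyk2 (0.40, edgeR adjusted p 0.0122). Against Control, 7 genes were higher in PMA_1002, 2 lower and 3 did not pass, with a median of 0.57 (all tested genes: 28.4% higher, 26.7% lower, median -0.029). Socs3 was still 3.75 above Control on the log2 scale and Stat3 1.47 above it.

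**Figure D4:**
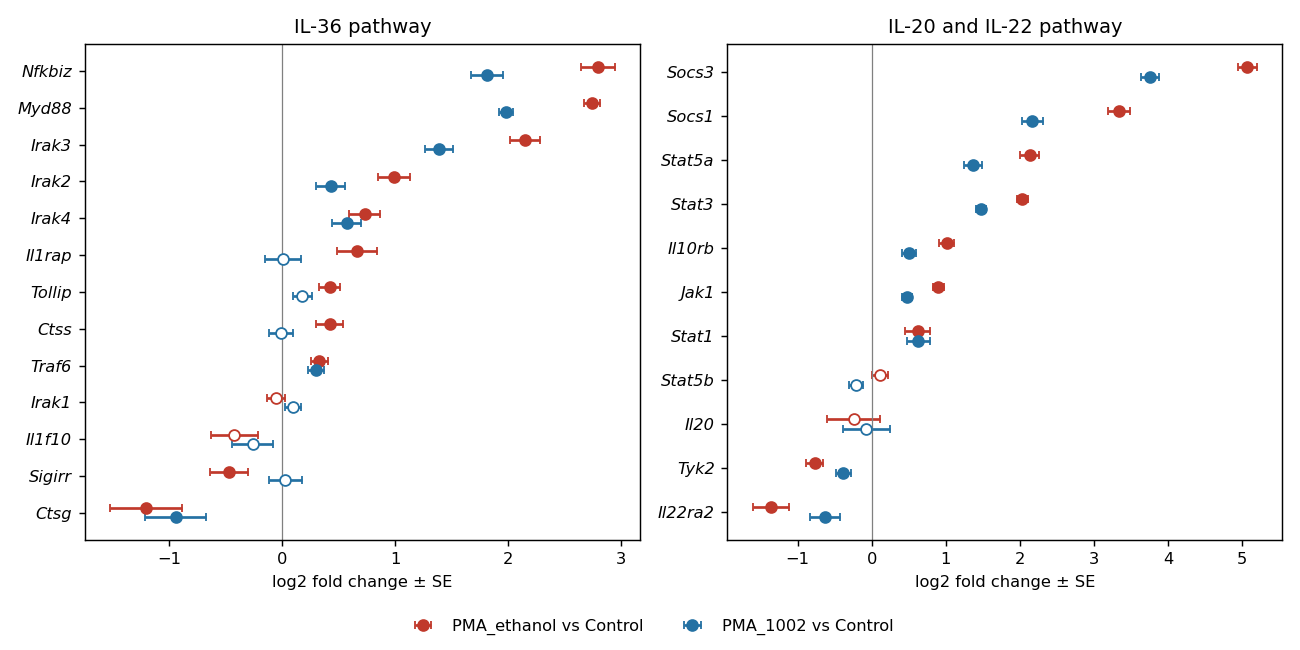
Log2 fold change with its SE (x axis) of the tested IL-36 pathway genes (left) and IL-20 and IL-22 pathway genes other than Il22 (right), in PMA_ethanol against Control (red) and PMA_1002 against Control (blue). Filled points passed at an adjusted p under 0.05; Nfkbiz, Myd88, Socs3 and Stat3 passed in both comparisons, and Il1rap is at 0.66 in red and 0.01 in blue.

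Genes that keratinocytes are known to raise when these cytokines act on them were read from a list of 20, of which 17 were tested. Other inflammatory signals raise many of them too, and neutrophils and macrophages also express several, S100a8, S100a9 and Il1b among them. Between PMA_ethanol and Control 16 were higher and 1 did not pass, with a median log2 fold change of 6.69, where 32.5% of all tested genes were higher. Several of the 16, among them Cxcl5, Csf3, Defb3 and Saa3, had means under 0.3 CPM in Control and passed the filter on low counts through the PMA libraries, so this count and median are a description only. Lcn2, which makes an iron-sequestering antimicrobial protein, rose by 5.77 (SE 0.158, edgeR adjusted p 4.69e-14), Il1b, the gene for interleukin-1 beta, by 8.66 (SE 0.285, edgeR adjusted p 9.88e-13) and the neutrophil chemokine gene Cxcl1 by 8.01 (SE 0.308, edgeR adjusted p 8.02e-12). Cxcl1 had a mean of 0.995 CPM in Control and also passed the filter through the PMA libraries. Its test against Control therefore carries little weight of its own. Il1b was low in Control too, at a mean of 1.85 CPM. Between PMA_1002 and PMA_ethanol 14 were lower, none was higher and 3 did not pass, with a median of -1.95, where 18.0% of all tested genes were lower. Lcn2 fell by 2.21 (edgeR adjusted p 3.5e-09), Il1b by 2.28 (edgeR adjusted p 3.43e-07) and Tslp, an epithelial cytokine gene, by 2.91 (edgeR adjusted p 3.78e-06). Against Control 16 were higher in PMA_1002, with a median of 4.41, where 28.4% of all tested genes were higher, under the same limit of the filter. S100a7a was the gene that did not pass in any of the 3 comparisons.

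Markers of some other cell types also differed between the groups. Of all tested genes, 32.5% were higher and 35.9% lower between PMA_ethanol and Control. The shares were 17.0% and 18.0% between PMA_1002 and PMA_ethanol, and 28.4% and 26.7% between PMA_1002 and Control. The summed level of the neutrophil markers, 7 of 11 of them tested, was 10.2 to 18.6 CPM in Control, 699 to 1190 in PMA_ethanol and 165 to 289 in PMA_1002. Mmp8, Retnlg, Trem1, Fpr1 and Fpr2 had means under 0.3 CPM in Control and passed the filter on low counts through the PMA libraries, so their tests against Control carry no weight of their own. Between the PMA groups all 7 tested markers were lower in PMA_1002. Ly6g stayed at or under 1.01 CPM in every library, and Ngp and Ltf had 0 reads in Control. Camp, also not tested, had means of 0.196, 0.266 and 0.3 CPM in Control, PMA_ethanol and PMA_1002. The 13 monocyte and macrophage markers summed to 699 to 890 CPM in Control, 2183 to 2668 in PMA_ethanol and 1161 to 1555 in PMA_1002, with Lyz2, Cd14 and Mrc1 the largest in PMA_ethanol. Between PMA_ethanol and Control 8 of the 13 were higher and Adgre1, Csf1r and C1qb did not pass, while the complement genes C1qa (-0.70) and C1qc (-0.64) were lower. Between PMA_1002 and PMA_ethanol 2 were higher, 8 lower and 3 did not pass. The summed T cell markers, 8 of 11 tested, overlapped in all groups at 42.6 to 66.5, 40.5 to 68.9 and 35.7 to 56.4 CPM. Between PMA_ethanol and Control Cd3d (0.86) and Cd2 (1.56) were higher and 6 did not pass. Between PMA_1002 and PMA_ethanol Cd3d (-0.78) and Cd2 (-1.05) were lower and 6 did not pass. Between PMA_1002 and Control 1 was lower and 7 did not pass. Of 8 mast cell markers, 1 was higher and 5 were lower in PMA_ethanol than in Control. In the same comparison 1 of 6 fibroblast markers was higher and 2 were lower, and 3 of 6 endothelial markers were higher and 2 lower. No skeletal muscle marker passed in any comparison. The part of these cell types in the results for the cytokine and receptor genes was not tested.

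Libraries within a group differed in several of the 10 genes at once. PMA_ethanol library 4 was lowest of its group in Il1f6, Il1f8, Il1f9, Il1f5, Il19, Il24 and Il22ra1 and highest in Il20ra and Il20rb. PMA_1002 library 6 was lowest of its group in Il1f8, Il1f9, Il1f5, Il1rl2 and Il24 and highest in Il20ra and Il20rb. On the log2 scale Il20rb deviated from its group mean by 0.441 in the first of these libraries and by 0.516 in the second, and Il24 by -1.42 and -0.688. PMA_1002 library 1 was highest of its group in Il1f6, Il1f8, Il1f5, Il1rl2 and the receptor chain Il22ra1 but lowest in Il19. Il20rb with Il1f6 (r = -0.846 within groups) and with Il24 (-0.767), the pairs drawn below, were the most negative among the 10 genes. Other pairs were positive, such as Il22ra1 with Il1f5 (0.613) and with Il1f8 (0.519). The libraries share all their RNA, so values of different genes in one library are not independent.

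**Figure D5:**
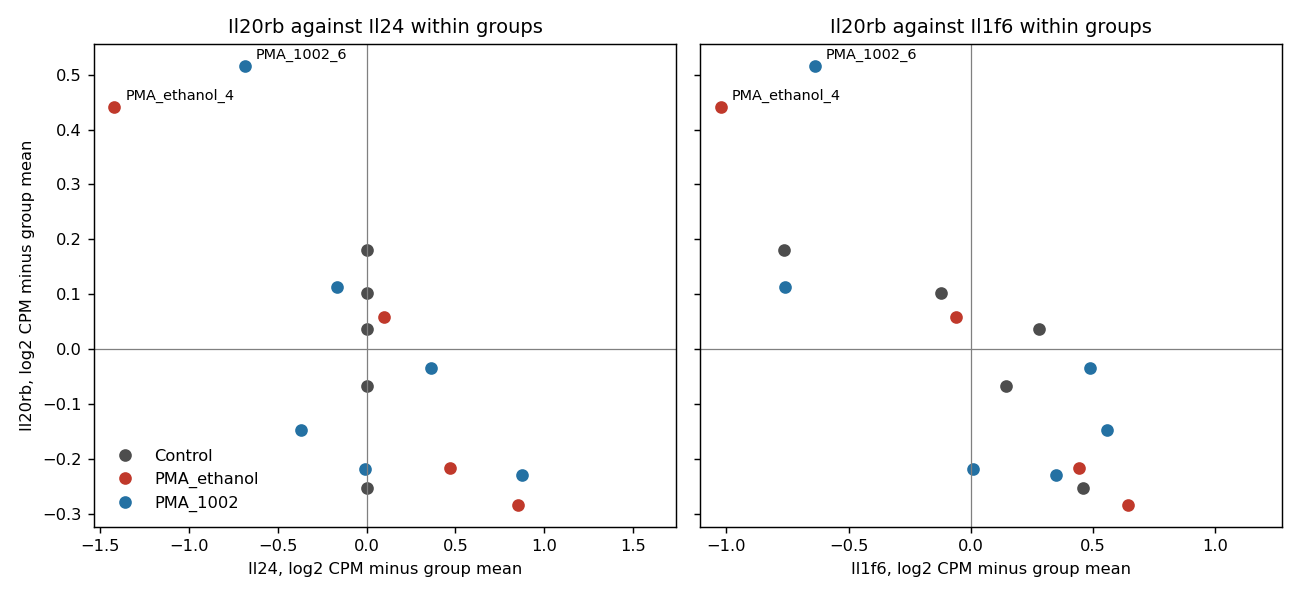
Deviation of each library from its group mean in log2 CPM, for Il20rb (y axis) against Il24 (left, x axis) and Il1f6 (right, x axis), with 1 point for each of the 15 libraries. PMA_ethanol library 4 and PMA_1002 library 6 lie at the upper left of both panels, with high Il20rb and low Il24 and Il1f6; the 5 Control libraries sit at 0 for Il24, of which they held no reads.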

How the data were processed

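Polyadenylated RNA was sequenced with a strand-preserving kit, per the labels' protocols. The submitters' processing notes list STAR 2.5 and HTSeq, FastQC 0.11.5 and MultiQC 0.8, and the build GRCm38. Which annotation release and strand setting the counting used is not given in the sources used here, nor is any filter. Each library has 1 deposited table of raw counts, in whole reads for each gene, without normalization. Reads given to no gene, 28.5% to 32.85% of each table (15.98% to 20.12% had several positions), stayed out of library sizes and tests.

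Groups came from the treatment labels. Symbols and positions came from GENCODE M21. Counts were tested with edgeR 4.0.16 (R 4.3.3; filterByExpr by group, TMM scaling, robust quasi-likelihood test, 15 libraries in 1 fit), adjusted by Benjamini-Hochberg over 14991 genes. Standard errors are the fold change divided by the root of the F statistic. The test was checked on simulated data. RPKM are CPM per kb of merged exons. Fold changes against 0 reads are bounds from 3 reads over the group, and intervals of read ratios are exact at 95%. Libraries of 1 group differed by more than sampling noise, with a chi-square per degree of freedom of 2.927 to 27.02, and each counted as a replicate.

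Alternatives were RLE and upper-quartile scaling, no filter, DESeq2 1.42.0, limma-voom (limma 3.58.1), each library left out, only the groups compared, a replicate block, a hair follicle covariate and counts thinned to the shallowest library. Leaving out the 6 libraries with a hair follicle level over 4 log2 CPM was added after seeing the data. The 10 genes and all lists were chosen with earlier results of these data known. All 10 genes are named. From each pathway list, names were taken from the genes that passed, up to 4 per comparison with the smallest adjusted p. Not all of these are given for every list and comparison. Named beyond that were Il1rap, Il10rb, Il22ra2, Sigirr, Ctsg, Ctss, Tyk2, Irak2, Irak4, Il20, Il22, Il1f10 and S100a7a, and the marker genes. They were named for their roles after their values were seen. 2 listed marker genes had no match in the annotation.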

Additional observations from a re-analysis of the deposited data

Results flagged for a closer look

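Il19 in Control library 3 stood apart from the other Control libraries, at 0 CPM beside 0.154 to 0.173 CPM. The gap to the nearest library was 0.889 of the range of the group, above Dixon's 95% critical value of 0.71 for 5 libraries. The values are 0 reads against 1 read in each of the other 4 libraries. Of 29 groups of levels examined, 1 passed this mark, and chance passes about 1 in 20.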

How the results depend on the processing

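Over the 30 results (10 genes in 3 comparisons), 699 of 749 alternative values kept both the direction and the side of the threshold, 21 kept the direction and no longer passed, 13 kept it and newly passed, and 16 changed sign, all 16 in differences between PMA_1002 and PMA_ethanol that had not passed. For 20 of the 30 results no alternative changed either. The number of the 10 genes that passed stayed at 8 to 10, 6 to 7 and 6 to 9 in the comparisons of PMA_ethanol with Control, PMA_1002 with PMA_ethanol and PMA_1002 with Control. The sign changes were Il1f8 at 0.07 with upper-quartile scaling, 0.11 with limma-voom, 0.02 with the replicate block and 0.09 with the hair follicle covariate, and -0.19 to 0.21 with 1 library left out, being above 0 without PMA_ethanol library 1 (0.21) or 3 (0.09) or PMA_1002 library 2 (0.04), 3 (0.03) or 6 (0.05). Il1rl2 was at 0.06 with upper-quartile scaling, 0.02 with the replicate block, 0.02 without PMA_ethanol library 1 and 0.01 without PMA_1002 library 6 (-0.07 to 0.02 with 1 library left out), and Il1f5 was at -0.02 and -0.10 without PMA_ethanol library 2 and 4 and at -0.05 without PMA_1002 library 1 (-0.10 to 0.21 with 1 library left out). The cause was not tested. Over all tested genes, 10258, 5244 and 8250 passed, and 6617, 2391 and 4076 with counts thinned to the shallowest library, which lowers every count. With the 6 libraries rich in hair follicle RNA left out, 2873 passed between PMA_1002 and PMA_ethanol, from fewer libraries. Leaving out 1 library gave 9733 to 10298, 4256 to 5274 and 7475 to 8501. Same-numbered libraries of different groups had a correlation of deviations above 0.1 in 2 of 13 pairs (-0.533 to 0.579), so the numbers were not taken to pair them. A pair with different numbers, Control 3 and PMA_ethanol 2, both rich in hair follicle RNA, reached 0.686. With such differences in hair follicle level among libraries, this check cannot decide whether any libraries were paired. With the replicate block 10, 6 and 9 of the 10 genes passed, and 9862, 3988 and 7807 genes in all. Il1f5 then passed against Control in PMA_ethanol (0.37, edgeR adjusted p 0.0285) and in PMA_1002 (0.44, edgeR adjusted p 0.0103). Il24 was not tested between PMA_1002 and Control when those groups were fitted alone. Depth limits Il24, Il19 and Il22 in Control, where 0 to 4 reads per gene over the group leave bounds or wide ratios.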

Other observations

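Genes most like each of the 10 were looked up among 13791 other tested genes with a mean of at least 1 CPM, by Pearson correlation of log2 CPM over the 15 libraries. These correlations mostly follow the 3 group levels, share depth and library, and say nothing of shared function. The endoplasmic reticulum chaperone gene Hspa5 was nearest to Il1f9 (r = 0.994, n = 15), with means of 317, 1023 and 544 CPM in Control, PMA_ethanol and PMA_1002, followed by Mcfd2 (0.992) and Cltc (0.991). Nearest to Il1f6 were Psmd1 (0.984), Edem1 (0.981) and Pmpca (0.979). Il1f8 was nearest to Kctd4 (0.958), Crct1 (0.940) and Cpa4 (0.937), and Il1f5 to the cornified envelope gene Lce1f (0.961), Smpd3 (0.960) and the epidermal protease gene Prss8 (0.955). Il1rl2 was nearest to Tuba4a (0.977), Hars (0.977) and Ptgs1 (0.975).

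Il24 was nearest to Map4k4 (0.992), Ctsl (0.990) and the neutrophil chemokine gene Cxcl5 (0.989), and Il19 to Stfa2, Fam49b and Gk (0.982 each). Stfa2 belongs to a family of near-identical genes, so its count is uncertain. Il20rb was nearest to Eef2k (0.994), Tanc1 (0.993) and Rapgefl1 (0.990), the last at 332, 40.3 and 178 CPM in Control, PMA_ethanol and PMA_1002. Il20ra was nearest to Lgr6 (0.991), a stem cell marker gene of skin appendages with means of 69.9, 20.7 and 38.0 CPM, and then to Abca8a (0.989) and Trarg1 (0.986). Il22ra1 was nearest to Prom2 (0.974), Pou3f1 (0.970) and Fam83f (0.969), of which Pou3f1, the gene for an epidermal transcription factor, had means of 123, 22.9 and 92.7 CPM.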
